A study of Chlamydomonas reinhardtii with 18 samples.

Results

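The genes of intraflagellar transport (IFT) and of the BBSome were followed through a short course of iron deprivation in Chlamydomonas reinhardtii, a unicellular green alga that swims with a pair of cilia, also called flagella. The genes were taken by name: those whose gene name in the deposited table is IFT, BBS, FLA or KAP followed by a number, and whose level reached 1 FPKM (a transcript level corrected for transcript length and sequencing yield) in at least 2 of the 9 columns. The name rule found 18 of the 17741 genes of the table, and all 18 passed the level filter, as did 12580 genes of the whole table. They are 12 genes of the IFT-B complex, 5 of the IFT-A complex and BBS7, and no gene carried an FLA or KAP name in the gene-name column. The kinesin-2 motor and 8 other BBS genes are listed there under other names or as synonyms. These and the IFT dynein and further IFT-B genes, 18 in all, are described beside the members as pathway genes outside the rule.

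All cultures were strain CC-4532, kept at 24 °C in TAP, a medium with acetate, under constant illumination near 90 µmol photons per m2 and s. Cells were sampled before a wash (pre-wash), spun down at 2500 g for 5 min and washed with TAP lacking iron, then sampled again directly (post-wash) and while kept in TAP with 0 µM Fe-EDTA, at 5, 10 and 15 min, at 30 and 60 min, and finally at 120 and 240 min. The 18 samples fall into 9 groups of 2 duplicates. How much iron the cultures had before washing is not stated by any source used here. None of the samples was washed into medium with iron, so the wash, the time in fresh medium and the lack of iron cannot be told apart.

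IFT trains carry building material along the cilium beneath its membrane. Kinesin-2 pulls trains to the tip with IFT-B as the main cargo-bearing complex, and IFT dynein returns them to the base, a step that needs IFT-A. The BBSome rides on the trains and takes membrane proteins out of the cilium. Chlamydomonas cells that have shed or shortened their cilia rebuild them, and transcripts of ciliary proteins are known to increase for a time while they do so.

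Each sampling point has 1 FPKM value per gene, the authors' combined value for both cultures, so no value has a replicate error and no test could be run. Differences are described by size on the log2(FPKM + 1) scale, where a gene is counted when it differs by 2-fold or more; ratios given for single genes are plain ratios of FPKM. As a guide to the spread of differences over genes, the robust SD over all 12580 genes was 0.168 between 15 and 10 min. It was 0.435 between post-wash and pre-wash, which includes any change at the wash. Neither value measures the error of a single gene's value. Column sums lay between 631357 and 762490 FPKM, and library depth is unknown. In RNA of whole cultures, a change in the share of cells in some state and a change in RNA per cell cannot be told apart.

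The IFT members followed a shared course. Levels were higher directly after the wash, highest at 5 min, lowest at 60 min and close to pre-wash levels at 240 min. The highest of the 9 values was at 5 min for 17 of the 18 members, against 12.8% of all kept genes. The exception, IFT139, had 16.88 FPKM at 5 min, 16.90 at 10 min and 16.94 at 15 min. All 18 members (17 with quantile normalization) had their lowest value at 60 min, against 14.6% of all kept genes. The members together held 0.0613% of the summed FPKM pre-wash, 0.107% post-wash, and 0.135%, 0.0406% and 0.0587% at the 5, 60 and 240 min points.

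**Figure D1:**
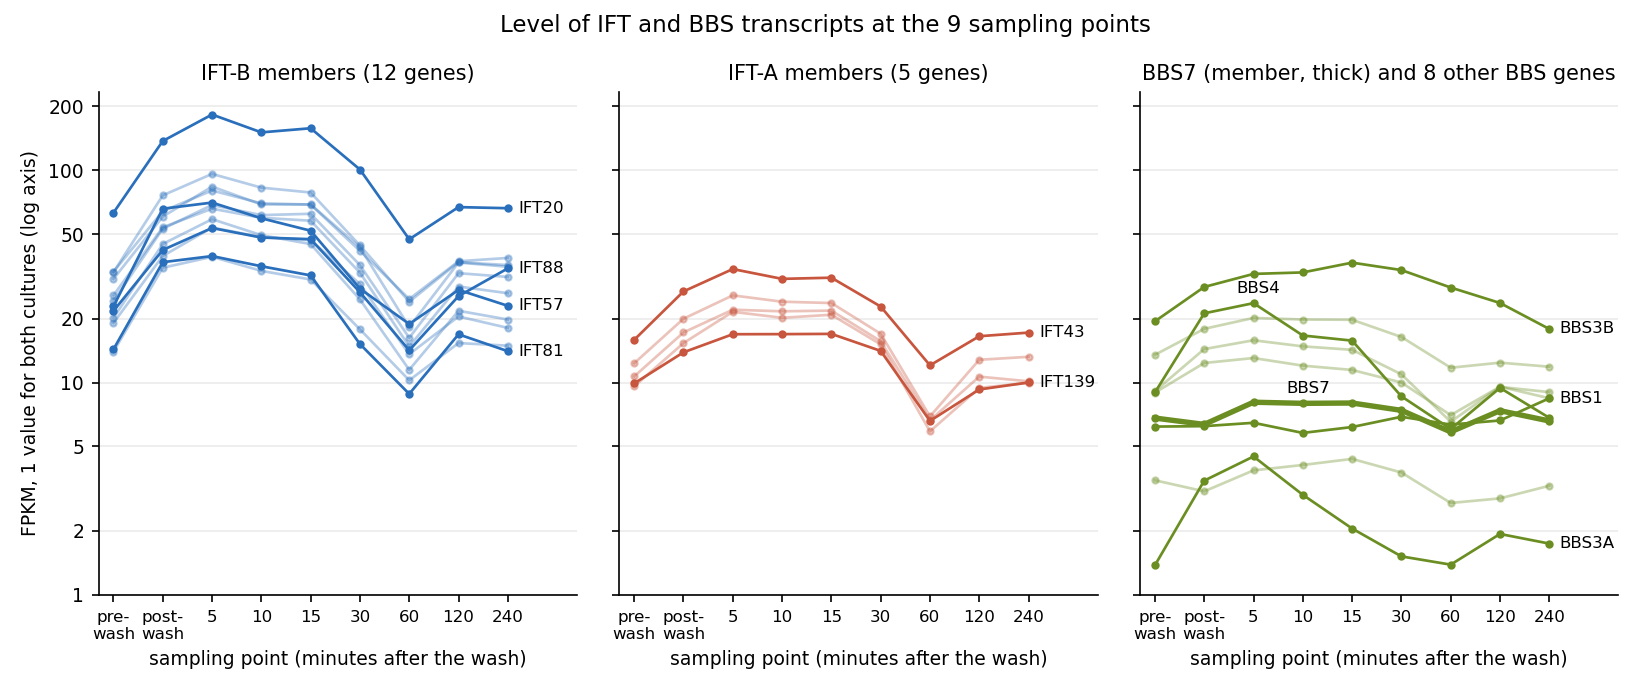
Level of each member, and of the BBS genes outside the name rule, at the 9 sampling points. Each line is a gene and each point the authors' combined FPKM of 2 cultures, on a log axis. The IFT-B and IFT-A lines are highest between 5 and 15 min and lowest at 60 min, while BBS7 stays between 5.86 and 8.08 FPKM.

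Directly after the wash, 17 of the 18 members were above pre-wash, as were 6253 of the 12580 kept genes. On the log2(FPKM + 1) scale 9 members were 2-fold or more higher and 0 were 2-fold lower. Of all kept genes 8.47% were 2-fold higher and 1.18% lower. The median difference was 0.98 for the members and -0.0039 for all kept genes. With quantile normalization, which forces the same distribution of values on every column, the 9 became 3, where 6.80% of all kept genes were 2-fold higher, and the members' median was 0.68, or 0.80 relative to the median of all genes, which that setting shifted to -0.11. The share of higher genes among all kept genes past 2-fold was 87.7%, and 76.8% with quantile normalization. All 9 belonged to IFT-B.

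The IFT-B complex holds a core that forms the body of the train and a peripheral set attached to it. Among core genes, IFT52, whose loss in the bld1 mutant leaves cells without flagella, had 33.0 FPKM pre-wash and 76.1 post-wash, then 96.0, 82.7, 78.5, 44.2, 24.0, 36.9 and 35.7 FPKM at the times from 5 to 240 min. Its value post-wash was 2.30 times the pre-wash value. The 3 columns from 5 to 15 min and the post-wash column stood above all others, and the 60 min column lay below pre-wash.

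IFT81 and IFT74 bind each other and together bind tubulin, the main cargo. IFT81 had 14.3 FPKM pre-wash, 36.9 post-wash, and 39.4, 35.3, 31.9, 15.2, 8.84, 16.9 and 14.0 FPKM from 5 to 240 min. IFT74 had 19.1 pre-wash, 39.4 post-wash, and 53.7, 48.4, 46.8, 29.1, 13.6, 20.5 and 18.1 FPKM over the same times. The pair did not keep one proportion. IFT81 was 2.57 times its pre-wash level directly after the wash and IFT74 2.07 times. At 30 min IFT81 was already close to pre-wash (ratio 1.06) while IFT74 was still above it, at 29.1 FPKM against 19.1 pre-wash. The ratio of IFT74 to IFT81 was thus 1.33 pre-wash, 1.07 post-wash and 1.92 at 30 min, and 1.29 at 240 min.

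IFT25 and IFT27 form a pair within IFT-B in which IFT27 is a Rab-like GTPase. IFT25 had 30.8 FPKM pre-wash, 60.4 post-wash, and 83.6, 68.9, 68.9, 43.3, 18.2, 36.7 and 35.1 FPKM from 5 to 240 min. For IFT27 the values were 24.2 pre-wash, 53.0 post-wash, and 68.5, 61.4, 62.3, 35.7, 16.2, 32.7 and 31.4 FPKM. Here the proportion held more closely, with IFT25 between 1.11 and 1.27 times IFT27 in all 9 columns.

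IFT88, a core subunit, differed from the rest at the end of the course. It had 21.7 FPKM pre-wash, 42.1 post-wash, and 53.4, 48.2, 47.3, 26.6, 14.2, 25.5 and 34.5 FPKM from 5 to 240 min. At 240 min it was 1.59 times its pre-wash level, the highest such ratio of the 18 members, whose median ratio was 1.05. The level at 240 min was 1.35 times that at 120 min for IFT88 and 0.833 times for IFT81, at the other end of the members. IFT70, a tetratricopeptide-repeat protein related to DYF-1 of C. elegans, had 20.2 FPKM pre-wash, 58.7 at 5 min, 11.5 at 60 min and 19.8 at 240 min. IFT22, a small GTPase of the Ras superfamily, had 33.2, 80.2, 24.7 and 38.6 FPKM at those 4 points. Of the IFT-B members IFT22 had the lowest ratio to pre-wash after the wash (1.93) and at 5 min (2.41).

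Among the peripheral IFT-B genes, IFT57 showed the largest ratio after the wash, 2.88. It had 22.8 FPKM pre-wash, 65.8 post-wash, and 70.3, 59.3, 51.8, 27.7, 18.9, 27.3 and 23.0 FPKM from 5 to 240 min. Most of its difference was present at the first sample after the wash, and the 5 min value was only 1.07 times the post-wash value. IFT172, which takes part in train turnaround at the tip, likewise had 14.0 FPKM pre-wash, 34.7 post-wash and 39.1 at 5 min. IFT20, which in mammalian cells also sits at the Golgi, was the most abundant member in every column. Its values were 63.0 FPKM pre-wash, 137 post-wash, and 183, 151, 157, 101, 47.2, 67.0 and 66.2 from 5 to 240 min. IFT80, the remaining peripheral member, had 25.7 FPKM pre-wash, 53.8 post-wash, 65.8 at 5 min, 14.8 at 60 min and 26.3 at 240 min.

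IFT-A transcripts were less abundant and differed less from pre-wash at the wash. FPKM is scaled to transcript length, so levels can be set side by side: the median of the 5 IFT-A genes was 17.2 FPKM post-wash and 10.7 pre-wash, and the median of the 12 IFT-B genes 53.4 post-wash and 23.5 pre-wash. Post-wash over pre-wash ratios ran from 1.40 (IFT139) to 1.69 (IFT43) in IFT-A and from 1.93 (IFT22) to 2.88 (IFT57) in IFT-B. The ranges of the log2 differences of the complexes did not overlap in this comparison, with quantile normalization included. Pre-wash levels differed too, from 9.59 to 15.9 FPKM in IFT-A and from 14.0 to 63.0 FPKM in IFT-B, and the part of abundance in these ratios was not tested.

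IFT140, one of the large IFT-A subunits, had 9.59 FPKM pre-wash, 15.3 post-wash, and 21.5, 20.2, 20.9, 15.1, 5.89, 9.43 and 9.97 FPKM from 5 to 240 min. IFT139, altered in the fla17 mutant, had 9.90 pre-wash, 13.9 post-wash, and 16.9, 16.9, 16.9, 14.1, 6.59, 9.28 and 10.0 FPKM. These courses were flat from 5 to 15 min and still above pre-wash at 30 min. IFT144, altered in the fla15 mutant, had 22.0 FPKM at 5 min and 6.63 at 60 min, IFT121 had 25.7 and 6.93 FPKM, and IFT43 had 34.2 and 12.0 FPKM at those times.

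**Figure D2:**
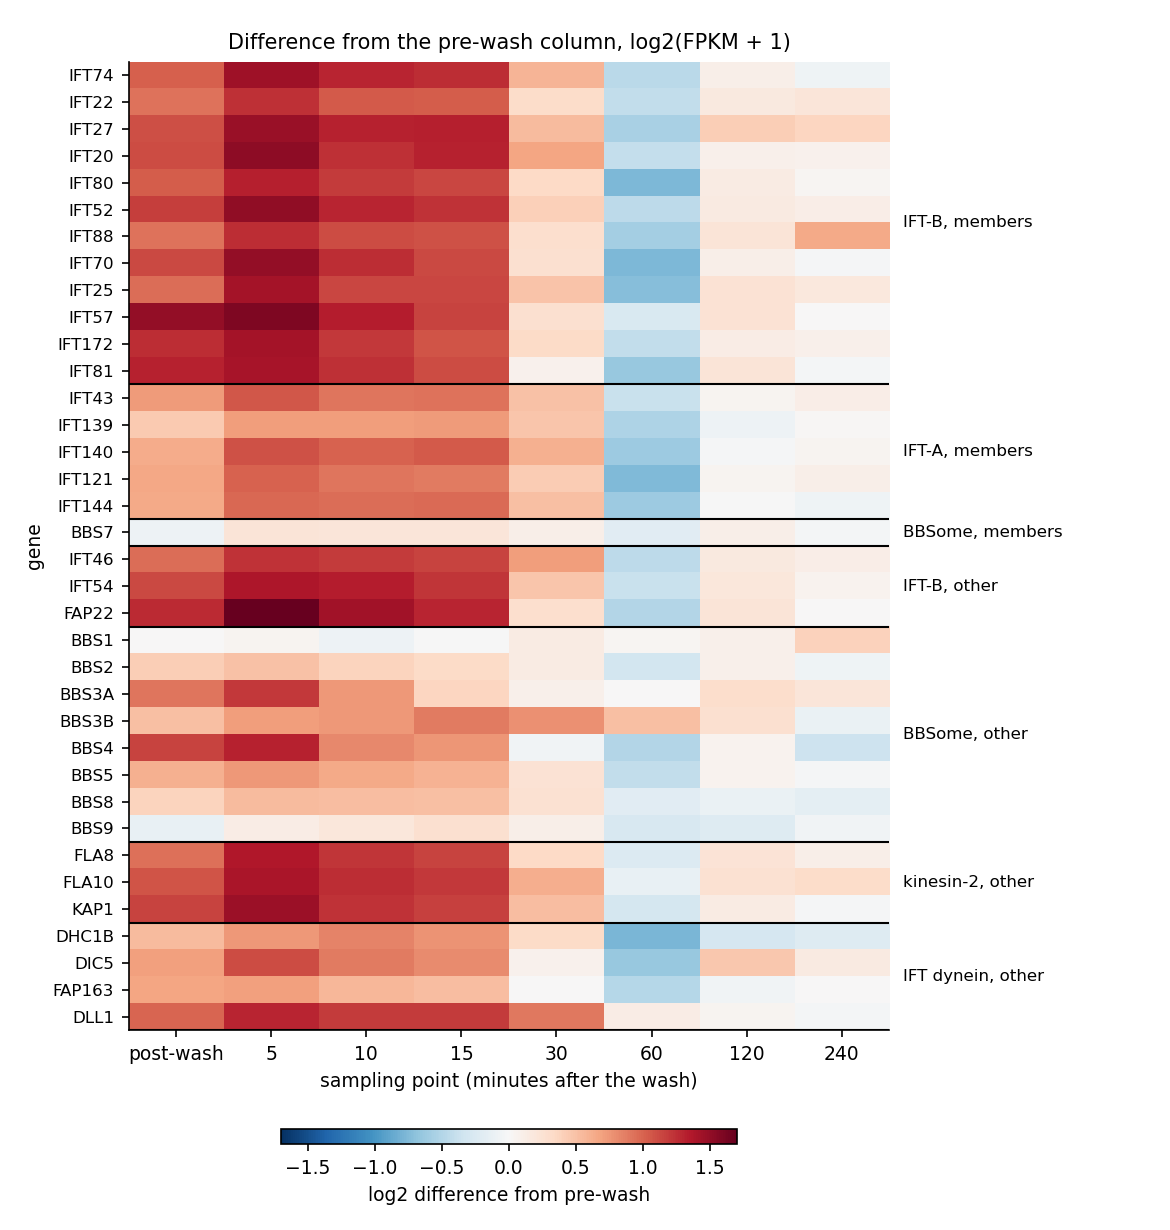
Difference from the pre-wash column for the 18 members (top 3 blocks) and the 18 pathway genes outside the rule, in log2(FPKM + 1), at each later sampling point. Red is above and blue below pre-wash. IFT-B rows reach 1.25 to 1.58 at 5 min, IFT-A rows 0.71 to 1.09, and every member row is below pre-wash at 60 min.

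At 5 min the members stood furthest from pre-wash, with 15 of 18 at 2-fold or more higher, where 8.78% of all kept genes were. All 12 IFT-B genes and 3 of the 5 IFT-A genes were among them, with median differences of 1.43 and 1.00. IFT57 was 3.08 times its pre-wash level and IFT139 1.70 times. From post-wash to 5 min alone, all 18 members were higher, as were 5953 of the 12580 kept genes. Of the members 0 reached 2-fold, where 1.87% of all kept genes did. At 10 and 15 min, 12 and 13 members were still 2-fold or more above pre-wash, against 7.44% and 7.2% of all kept genes. These comparisons share the pre-wash column. With quantile normalization the counts at 5, 10 and 15 min were 9, 0 and 1, where 6.98%, 5.72% and 5.10% of all kept genes were 2-fold higher. With 18 members, the counts at 10 and 15 min cannot be told from that background. The members' medians with this setting were 0.99, 0.79 and 0.75, or 1.10, 0.87 and 0.81 relative to the medians of all kept genes.

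IFT-B levels were lower earlier than IFT-A levels. Between 15 and 30 min the median difference was -0.79 in the IFT-B members and -0.44 in the IFT-A members. Their ranges did not overlap (-1.03 to -0.64 in IFT-B, -0.46 to -0.25 in IFT-A). Over all 15 IFT-B genes, with those outside the rule, the range was -1.03 to -0.45 and overlapped that of IFT-A. IFT81 was the 1 member that was 2-fold lower in this step, at 15.2 FPKM at 30 min against 31.9 at 15 min; 2.25% of all kept genes were 2-fold lower. Between 30 and 60 min the order turned round. The IFT-A median was -1.13 and the IFT-B median -0.95, with overlapping ranges, and 9 of 18 members were 2-fold lower, against 2.46% of all kept genes. IFT140, at 5.89 FPKM at 60 min against 15.1 at 30 min, was the furthest down in this step. With quantile normalization the counts in these steps were 0 and 2, where 1.76% and 1.72% of all kept genes were 2-fold lower. The ratio of the IFT-B to the IFT-A median level was 2.20 pre-wash and 3.10 post-wash. Over the following 4 samplings it was 3.05, 2.75, 2.51 and, at 30 min, 1.98, and over the last 3 it was 2.34, 2.61 and 2.85. It was lowest at 30 min, when the median difference from pre-wash was 0.34 in IFT-B and 0.49 in IFT-A. With quantile normalization these medians were 0.016 and 0.27, and 7 of the 18 members changed sign in this comparison.

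**Figure D3:**
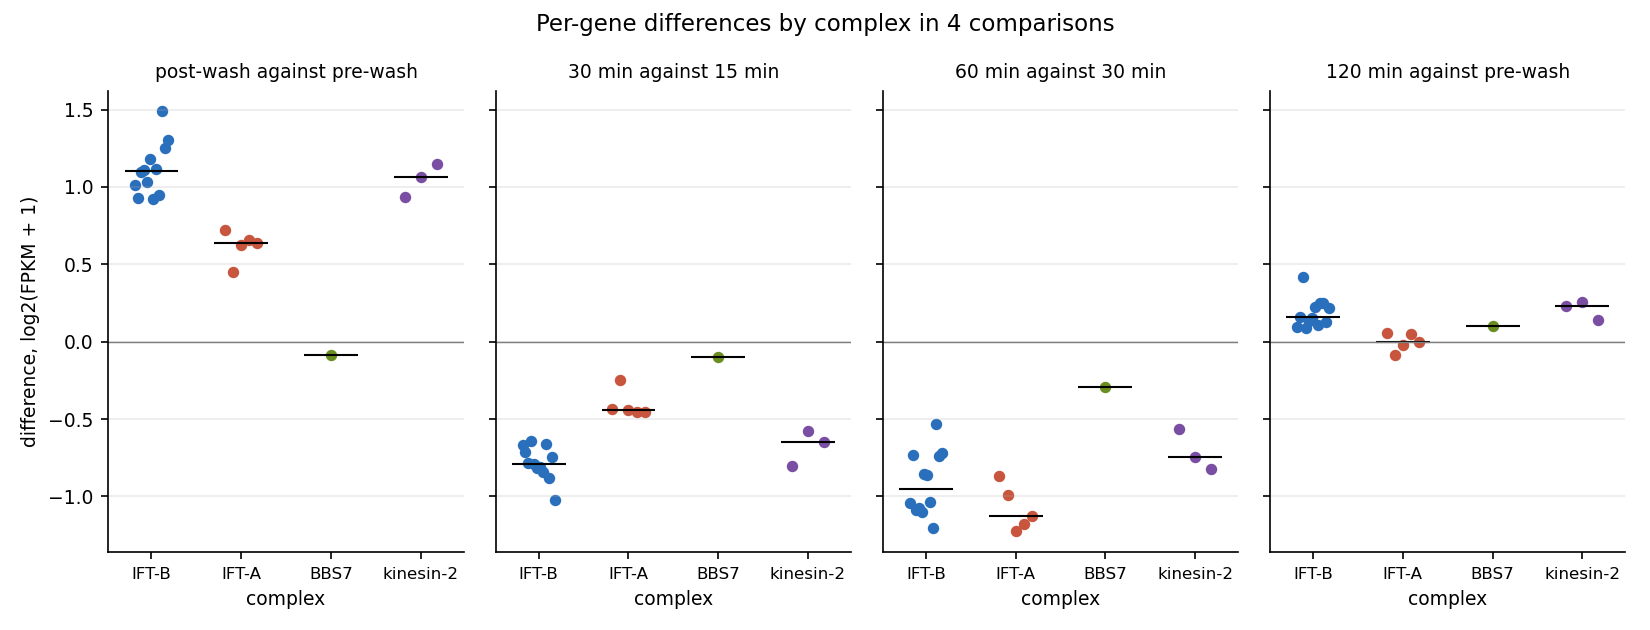
Differences of single genes in log2(FPKM + 1) by complex, in 4 comparisons; each point is a gene and each black line a median. For IFT-B and IFT-A only members are shown. IFT-B lies above IFT-A in post-wash against pre-wash and below it in 30 min against 15 min. In 60 min against 30 min IFT-B lies above by median, with overlap, and in 120 min against pre-wash above by a narrow gap.

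Against post-wash, 16 of the 18 members were 2-fold or more lower at 60 min, where 14.4% of all kept genes were. The exceptions were IFT139, with a difference of -0.97, and BBS7, with -0.10, whose sign turned with quantile normalization. IFT81 had the lowest ratio, at 8.84 FPKM at 60 min against 36.9 post-wash. Against pre-wash all 18 members were lower at 60 min, as were 6098 of the 12580 kept genes. The members' median was -0.54 and their range -0.76 to -0.19. Of the 18 members 0 reached 2-fold, where 3.66% of all kept genes did. IFT121 was the lowest relative to pre-wash, at 6.93 FPKM at 60 min against 12.3.

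From 60 to 120 min all 18 members were higher again, with a median of 0.60, against -0.0016 for all kept genes. Of the members 0 were 2-fold higher, where 1.87% of all kept genes were. The 0 became 2 with a pseudocount of 0.1, 1 with median-of-ratios scaling and 3 with quantile normalization. Of all kept genes 5.46%, 2.16% and 2.21% were 2-fold higher with these settings. IFT27 had the highest ratio, at 32.7 FPKM at 120 min against 16.2 at 60 min, a plain ratio of 2.02. At 120 and 240 min the members' medians against pre-wash were 0.12 and 0.06, and 0 members differed from pre-wash by 2-fold in either direction, where 4.05% and 9.32% of all kept genes did. At 120 min every IFT-B difference from pre-wash (0.09 to 0.42) was above every IFT-A difference (-0.09 to 0.05), but the gap was narrow. Both medians, 0.16 and -0.0032, were smaller in size than the robust SD of 0.168 between 15 and 10 min. That SD is a spread over single genes in another pair of columns and does not measure the error of a median. Against post-wash, 6 members were 2-fold lower at 120 min and 8 at 240 min, all of IFT-B, where 10.1% and 12.3% of all kept genes were. With quantile normalization these counts were 0 and 2, where 8.57% and 10.5% of all kept genes were 2-fold lower. All comparisons against post-wash share that column.

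BBS7, the only BBSome gene under the name rule, differed little between columns. It pairs with BBS2 in the mammalian BBSome. It had 6.80 FPKM pre-wash, 6.35 post-wash, and 8.08, 7.98, 8.01, 7.40, 5.86, 7.37 and 6.59 FPKM from 5 to 240 min. Its whole range was 0.40 on the log2 scale, while the IFT members' ranges ran from 1.24 (IFT139) to 2.26 (IFT70). The other BBS genes, listed under synonyms, differed among themselves. BBS4 was the only one of the 9 BBS genes that was 2-fold higher after the wash, where 8.47% of all kept genes were, with 21.2 FPKM post-wash against 8.98 pre-wash, and it was highest at 5 min with 23.6 FPKM. BBS1 had 6.23 FPKM post-wash against 6.20 pre-wash, and was highest at 240 min with 8.43 FPKM. BBS9 had 3.07 FPKM post-wash against 3.47 pre-wash.

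BBS3A and BBS3B are listed as separate genes for the small GTPase that recruits the BBSome to membranes, named ARL6 in mammals. BBS3A had 1.38 FPKM pre-wash, 3.45 post-wash, and 4.49, 2.96, 2.05, 1.52, 1.39, 1.94 and 1.74 FPKM from 5 to 240 min. BBS3B had 19.4 FPKM pre-wash, 28.2 post-wash, and 32.5, 33.0, 36.7, 33.8, 28.0, 23.7 and 17.9 FPKM. BBS3A was 2.50 times its pre-wash level by plain ratio but, at 0.90, below 2-fold on the FPKM + 1 scale. The weakly expressed BBS3A was highest at 5 min, and BBS3B at 15 min with 28.0 FPKM still present at 60 min, when all members were at their lowest. BBS2, BBS5 and BBS8 were all above pre-wash after the wash and below 2-fold, with 12.4, 14.4 and 17.9 FPKM post-wash against 8.96, 9.11 and 13.5 FPKM pre-wash. The median difference of the 9 BBS genes was 0.42 post-wash against pre-wash.

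Genes of the motor that drives trains to the tip had differences from pre-wash in the range of IFT-B directly after the wash and at 5 min. FLA10, a kinesin-2 motor subunit, had 19.5 FPKM pre-wash, 41.8 post-wash, and 52.5, 47.7, 45.9, 30.4, 17.7, 23.4 and 24.5 FPKM from 5 to 240 min. FLA8, the other motor subunit, had 24.3 FPKM pre-wash, 47.4 post-wash and 63.8 at 5 min. KAP1, the non-motor subunit, had 16.2, 37.1 and 45.9 FPKM at those points. After the wash 2 of the 3 were 2-fold higher (FLA8, at 0.94, was just below), against 8.47% of all kept genes, and at 5 min all 3 were, against 8.78%. At 60 min the kinesin-2 genes lay closer to pre-wash than most IFT genes, with differences of -0.30 to -0.13.

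Genes of the returning motor differed among themselves. The heavy chain DHC1B had 10.3 FPKM pre-wash, 15.3 post-wash, and 17.8, 19.2, 18.2, 13.1, 5.58, 8.27 and 8.72 FPKM from 5 to 240 min, with its highest value at 10 min. The intermediate chains DIC5 (FAP133) and FAP163 had 15.7 and 13.4 FPKM post-wash against 9.31 and 8.06 pre-wash. DLL1, the LC8 light chain that is also part of axonemal dyneins and radial spokes, had 916 FPKM post-wash against 460.3 pre-wash. Of these 4 genes 0 passed 2-fold after the wash, where 8.47% of all kept genes did. DHC1B, DIC5 and FAP163 had differences of 0.53 to 0.69, within the IFT-A range of 0.45 to 0.72, and DLL1, at 0.99, was within the IFT-B range.

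The IFT-B genes outside the name rule had differences within the range of those inside it after the wash (0.92 to 1.49). IFT46, needed for import of outer dynein arms and named FAP32 in the table, had 62.5 FPKM post-wash against 32.0 pre-wash. IFT54 had 47.0 FPKM post-wash against 20.9. FAP22, described in the table as qilin-like and included after that line was read, had 48.1 FPKM post-wash against 19.4, and at 5 min was 3.34 times its pre-wash level. IFT46 stayed higher at 30 min, with 52.8 FPKM at 30 min against 72.3 at 15 min, a difference of -0.45 that falls in the IFT-A range. IFT122 and IFT56 were not analysed here.

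Across the 9 columns, Pearson's r between each IFT member and the median course of the other members lay between 0.939 (IFT88) and 0.996 (IFT52), and was 0.736 for BBS7. For the kinesin-2 genes r was 0.987 to 0.990, and for BBS1 it was -0.373. These values describe 9 points that share their columns and their scaling. Of 1203 named genes outside the members with a mean of at least 5 FPKM, the 10 most like the members' median course were DIC4, MOT45, MOT7, DRC6, FAP97, DIC1, FAP220, DLT3, FAP161 and FAP21, with r of 0.998 down to 0.993. DIC4 and DIC1 are intermediate chains of the inner dynein arm I1 and of the outer arm, and DLT3 a dynein light chain. In the lists of ciliary and pathway genes were 7 of these 10, against 19.5% of the 1203.

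Other ciliary gene lists stood on both sides of the members. After the wash, when 8.47% of all kept genes were 2-fold higher, all 16 radial spoke genes were, with a median of 1.37, all 4 tubulin genes with a median of 1.20, 130 of 225 flagellar associated proteins with a median of 1.14, and 10 of 22 axonemal dynein genes with a median of 0.96. Radial spoke gene RSP3 had 81.1 FPKM post-wash against 19.5 pre-wash. TUB2, one of a near-identical pair of beta-tubulin genes whose reads the counting may have split, had 833 FPKM post-wash against 254. In the transition zone and basal body list 1 of 11 genes (DIP13) was 2-fold higher, a share near that of all kept genes, and the median was 0.25. The list of flagellar length and severing genes had 4 of 8 higher, with a median of 0.77. In it CNK2, a NIMA-related kinase, had 34.9 FPKM post-wash against 7.94 pre-wash.

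**Figure D4:**
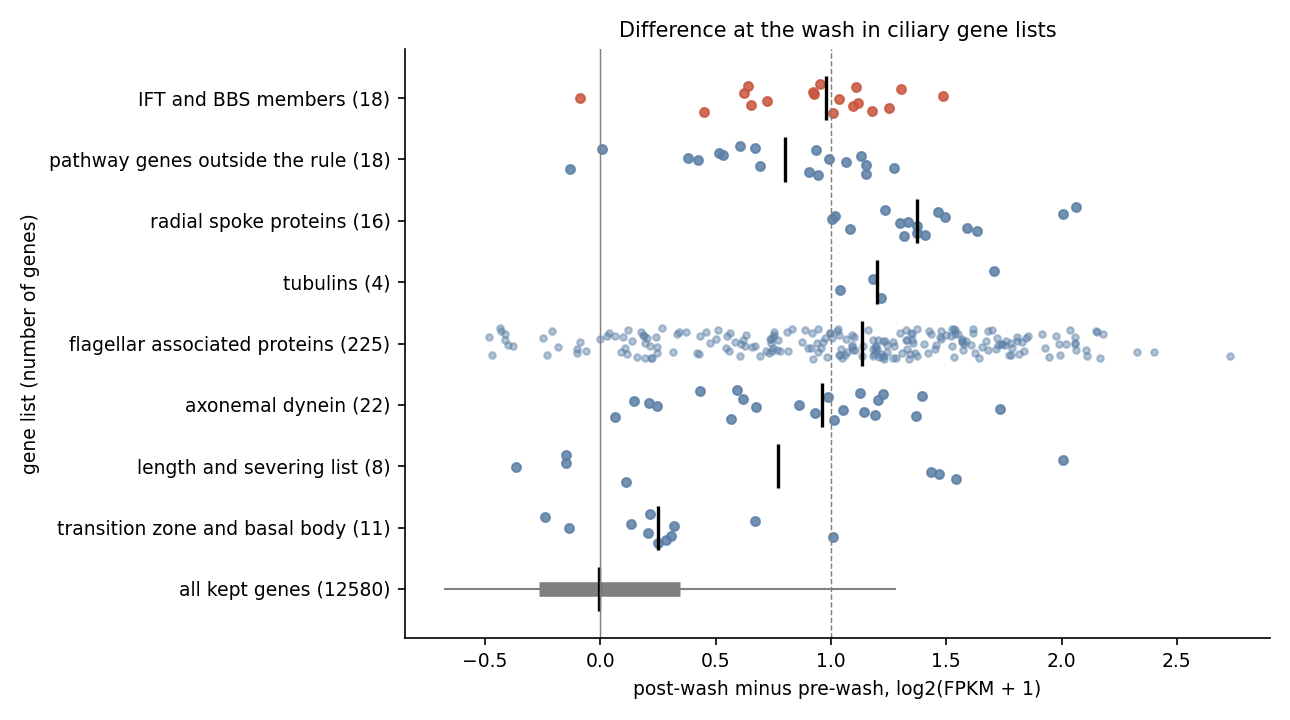
Difference between post-wash and pre-wash in log2(FPKM + 1) for the members and other ciliary gene lists. Each point is a gene and each black line a median; for all kept genes the grey bar spans the middle percentiles (25 to 75) and the thin line percentiles 5 to 95. The dashed line marks 2-fold. The members' median is 0.98, that of the radial spoke list 1.37 and that of the transition zone and basal body list 0.25.

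The lists also differed at later times. At 30 min 9 of 16 radial spoke genes were still 2-fold above pre-wash, where 5.53% of all kept genes were, while 0 of 18 members were; the medians were 1.01 and 0.42. At 60 min all 4 tubulin genes were above pre-wash with a median of 0.34, while all 18 members were below it.

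Gamete genes were looked at because gametes of this alga express their own set of surface and fusion genes. Of 7 genes found, FUS1 was listed at 0 in every column, and 4 were below 1 FPKM post-wash and 5 pre-wash. SAG1 and GSP1 are described as genes of plus gametes. The mating type of the cultures was not considered, so low values cannot show that gametes were absent. The summed level of the 7 was 228 FPKM post-wash against 110 pre-wash, and over all columns was lowest at 240 min (61.1) and highest at 15 min (230.2). Nearly all of it was GAS28, described as stress-induced, with 223 FPKM post-wash against 103 pre-wash. GAS30, with the same description, had 2.55 FPKM post-wash against 0.17 pre-wash. HAP2 had 0.91 against 0.31, SAG1 0.42 against 0.49 and GSM1 0.15 against 0.16. GSP1, a transcription factor of plus gametes, had 1.20 FPKM post-wash against 5.49 pre-wash. The part of these genes in the members' levels was not tested.

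The description lines of the table mention deflagellation for 3 of the 18 members (IFT25, IFT70 and IFT121) and for 34 of the 12580 kept genes. Of the 31 such genes that are not members, 14 were 2-fold higher and 0 were 2-fold lower post-wash, and their median difference was 0.96. Of all kept genes 8.47% were higher and 1.18% lower. Genes of the other ciliary lists, such as FAP44, were not taken out of the 31, so this count is not separate from those lists. Whether cells shed or shortened their cilia at the wash was not tested. No member lies next to another in the gene order of RefSeq assembly Chlamydomonas_reinhardtii_v5.5. Of the members' 36 neighbours 30 were kept, and 1 of these (3.33%, against 8.47% of all kept genes) was 2-fold higher after the wash: DCC1, an outer dynein arm docking subunit next to IFT172, with 66.2 FPKM post-wash against 21.9 pre-wash. The median difference of the kept neighbours was 0.06.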

How the data were processed

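Polyadenylated RNA was sequenced per the labels' protocols. Per the file headers, the deposited table gives FPKM under v5.6 gene identifiers. The submitters' processing notes name STAR 2.4.1 and Cuffdiff 2.0.2, without the scaling between libraries or the use of strand. The authors deposited 1 FPKM column per sampling point for 2 cultures, so the planned limma fits were not possible and differences are given by size. A further 9 value columns, of samples that are not among the 18, were left out. Values were compared as log2(FPKM + 1), which understates low genes, in genes with 1 FPKM or more in at least 2 columns. A count takes genes past 2-fold. Ratios between low values did not recover whole reads, so no interval for depth is given. The largest share of low genes with the same ratio was 24 of 320, between post-wash and 5 min.

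The members and lists were chosen with earlier results of these data known. All members are named, with at most 4 genes per other list, those with the largest difference after the wash, and the 10 genes most like the members' median course; gamete and neighbouring genes were named in addition. The RefSeq table matched all 18 members and served only for gene order. Sequences were not analysed here. Alternatives were a pseudocount of 0.1, no level filter, a filter of 5 FPKM, quantile normalization and median-of-ratios scaling. Calculations used Python 3.11.15 with numpy 2.4.6, pandas 2.3.3 and matplotlib 3.10.9, and the counting of 2-fold differences was tested on simulated data.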

Additional observations from a re-analysis of the deposited data

How the results depend on the processing

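No paired analysis was possible because each sampling point has 1 column that combines its 2 cultures; the replicate block, the leave-one-out fits and limma were not run for the same reason. Leaving out the level filter or raising it to 5 FPKM kept all 18 members and their values, so neither could change a result over the members. The other settings were judged on 105 counts and medians over the members. A result counted as unchanged within 1.5 times (counts) or 0.168 on the log2 scale (medians). Of the 105, 104 were unchanged with a pseudocount of 0.1, 103 with median-of-ratios scaling and 74 with quantile normalization. Many of the counts were 0 as reported, and a 0 that stayed 0 scored as unchanged. These totals therefore say little about how well the 2-fold counts held. Counts above 0 as reported that are given below were all lower with quantile normalization. Of 63 medians, 2 close to 0 turned sign, both of IFT-A: 120 min against pre-wash, -0.0032 as reported and 0.0048 with median-of-ratios scaling, and 15 min against 10 min, 0.011 and, with quantile normalization, -0.016. The number of members 2-fold higher at 120 min against 60 min, 0 as reported, was 2 with a pseudocount of 0.1, 1 with median-of-ratios scaling and 3 with quantile normalization. The shares of all kept genes were 5.46%, 2.16% and 2.21% in the same order. The number 2-fold lower at 120 min against post-wash, 6 as reported, was 3 with median-of-ratios scaling and 0 with quantile normalization. Of all kept genes 9.48% and 8.57% were 2-fold lower with these 2 settings.

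With quantile normalization the median over all kept genes was -0.11 post-wash against pre-wash, 3 members were 2-fold higher post-wash against pre-wash, and the medians of members, IFT-B and IFT-A were 0.68, 0.81 and 0.43. Against pre-wash, 9, 0 and 1 members were 2-fold higher at 5, 10 and 15 min. The 3 medians in the same order were 0.99, 1.10 and 0.73 at 5 min, 0.79, 0.92 and 0.64 at 10 min, 0.75, 0.76 and 0.60 at 15 min, and 0.10, 0.016 and 0.27 at 30 min. Against post-wash they were -0.51, -0.73 and -0.46 at 120 min, and -0.51, -0.81 and -0.38 at 240 min, where 2 members were 2-fold lower. In the steps, 0 members were 2-fold lower at 30 min against 15 min and 2 at 60 min against 30 min, with an IFT-B median of -0.76. Of 378 differences of single members, 17 changed sign with quantile normalization and 7 with median-of-ratios scaling; 7 of the 17 were at 30 min against pre-wash (IFT22, IFT57, IFT70, IFT80, IFT81, IFT88 and BBS7). The highest value was at 5 min in 16 members with quantile normalization and in 18 with median-of-ratios scaling, and the lowest at 60 min in 17 and 18. Of all kept genes past 2-fold against pre-wash, 65.9% were higher at 15 min and 49.2% at 30 min with quantile normalization, against 76.8% and 59.7% without it. The cause of these shifts was not tested. Library depth is unknown, so the precision of low genes such as BBS3A cannot be stated.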
